A study of Mus musculus with 26 samples.

Results

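The 45 genes described here encode the machinery of mitosis, the step in which a cell parts its copied chromosomes between its daughters. They were listed by name, by what their proteins do, with earlier results of these data known. In both sets of libraries 44 of the 45 were measured, among 16322 genes in whole tumours and 14131 in sorted cells. Expression of Kif4, a chromokinesin gene, is not analysed here, and its promoter is counted below. All 44 passed the filter on low values in both sets. RNA was sequenced from 12 whole tumours of KPC mice, an engineered model of pancreatic ductal carcinoma. Of these tumours 7 came from mice given vehicle, with no day in the labels, and 5 from mice given GS9820, a PI3K p110δ inhibitor, for 14 days. From spleens of tumour-bearing KPC mice, given vehicle or 14 days of GS9820, sorted polymorphonuclear cells (PMN, also labelled "low") gave 3 vehicle and 4 treated libraries, and sorted monocytes (also labelled "high") gave 3 and 4. The labels give the strain as KPC alone, with no age, no allele and no statement of which libraries came from 1 animal, so p-values measure the spread between these libraries, which may be technical.

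Mitosis genes are switched on late in the cell cycle, as a cell leaves S phase, and are kept low in cells that have stopped dividing. Their RNA is therefore widely read as a sign of dividing cells in tumours and in blood-forming tissue. Neutrophils lose the capacity to divide as they mature, whereas their precursors in marrow and spleen divide. Many of these promoters carry a cell cycle gene homology region (CHR) and CCAAT boxes, the latter a binding element of the factor NF-Y, and Foxm1, a member here, encodes a transcription factor of the same programme.

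Promoter sequences are shown first, as background to the list, and whether they bear on the values was not tested. RefSeq promoter windows (GRCm38.p6, 250 bases before to 50 bases after the annotated start) were matched by symbol for 39 of the 45 genes, Kif4 included, and gave 41 windows, since Prc1 and Ect2 have 2 starts each. The CHR was searched as TTTGAA or TTCGAA and the CCAAT box as CCAAT on both strands (TTCAAA and ATTGG on the other strand), and the searched words are not parts of each other. A CHR match lay in 34 of the 41 windows (82.9%), against 19.2% of all 32851 promoter windows. A CCAAT match lay in 32 (78.0%), against 37.4% of all windows, and both lay in 30 (73.2%), against 7.52%. By gene, 32 of the 39 had a CHR, 30 a CCAAT box and 28 both. The matches were near the start: the 47 CHR matches had a median position of -17 and the 73 CCAAT matches of -71, counted in bases from the start. Ncaph, Mad2l1, Nuf2, Nusap1 and Birc5 had neither in this window, Ccnb1 and Cenpe had CCAAT alone, and Ndc80, Kif15, Kif2c and Anln had a CHR alone. The 6 genes highest in tumours among those with both are printed, with the bases before the start on the gene's own strand and CHR and CCAAT letters, in either orientation, in capitals.
Mki67 (chr7:135716380-135716629, minus strand): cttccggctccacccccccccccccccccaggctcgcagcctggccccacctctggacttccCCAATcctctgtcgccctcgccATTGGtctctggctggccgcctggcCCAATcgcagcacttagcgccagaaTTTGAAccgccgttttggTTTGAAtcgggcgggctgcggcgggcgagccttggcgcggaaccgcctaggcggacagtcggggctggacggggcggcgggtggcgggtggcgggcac
Top2a (chr11:99024190-99024439, minus strand): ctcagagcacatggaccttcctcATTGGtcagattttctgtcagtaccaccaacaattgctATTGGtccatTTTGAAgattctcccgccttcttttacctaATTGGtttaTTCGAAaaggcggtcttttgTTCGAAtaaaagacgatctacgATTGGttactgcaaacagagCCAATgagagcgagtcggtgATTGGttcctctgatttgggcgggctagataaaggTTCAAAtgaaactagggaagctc
Ncapd2 (chr6:125191587-125191836, minus strand): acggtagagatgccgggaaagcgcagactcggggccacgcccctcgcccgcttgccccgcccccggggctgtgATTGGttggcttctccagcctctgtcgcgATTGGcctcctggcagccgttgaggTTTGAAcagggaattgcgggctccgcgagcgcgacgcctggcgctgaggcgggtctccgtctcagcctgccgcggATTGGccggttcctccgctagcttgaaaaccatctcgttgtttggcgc
Prc1 (chr7:80294226-80294475, plus strand): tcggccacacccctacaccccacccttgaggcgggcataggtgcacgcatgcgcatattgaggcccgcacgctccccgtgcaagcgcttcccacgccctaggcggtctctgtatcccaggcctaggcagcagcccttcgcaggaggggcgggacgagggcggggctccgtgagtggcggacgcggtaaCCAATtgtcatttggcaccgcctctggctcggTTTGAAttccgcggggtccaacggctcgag
Cdc20 (chr4:118437344-118437593, minus strand): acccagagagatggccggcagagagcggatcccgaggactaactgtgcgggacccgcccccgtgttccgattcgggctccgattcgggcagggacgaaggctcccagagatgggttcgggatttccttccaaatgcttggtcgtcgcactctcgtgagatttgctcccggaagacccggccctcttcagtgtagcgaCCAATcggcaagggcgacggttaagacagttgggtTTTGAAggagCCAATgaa
Cenpf (chr1:189688087-189688336, minus strand): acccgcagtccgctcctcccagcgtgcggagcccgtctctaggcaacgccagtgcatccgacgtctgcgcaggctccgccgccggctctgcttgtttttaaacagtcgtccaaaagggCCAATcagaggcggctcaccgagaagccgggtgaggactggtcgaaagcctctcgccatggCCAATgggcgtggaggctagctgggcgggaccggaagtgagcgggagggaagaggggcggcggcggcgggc
Top2a held 4 CHR and 6 CCAAT matches before its start, and Mki67 held 2 and 3. Cdc20 and Prc1 had the CHR close to the start, at -18 and -30, with a CCAAT box before it at -53 and -62, and Cdc20 had another CCAAT box at -8. In Cenpf the CHR lay just after the start, at 3, outside the printed bases. These are matches of letters and say nothing of what was bound in these cells.

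**Figure D1:**
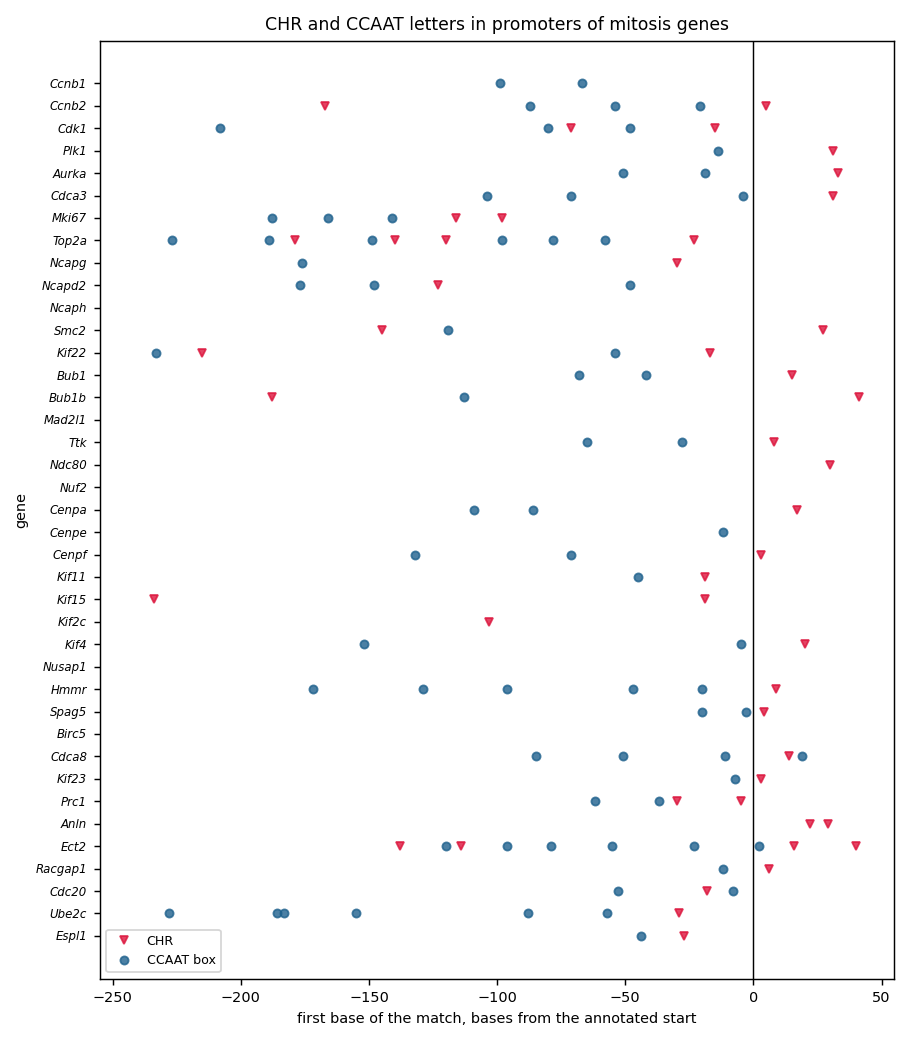
Positions of CHR (triangles) and CCAAT (circles) matches in the promoter windows of the 39 matched mitosis genes, in bases from the annotated start (line at 0). CHR matches gather around the start, with a median of -17, and CCAAT matches before it, with a median of -71. Prc1 and Ect2 have 2 annotated starts, both drawn.

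Values below are the authors' deposited log2 values, which they name log2 RPKM. Within a set they have nearly the same distribution in every library, so read depth is unknown, and differences are log2 differences with their standard error (SE). Whole libraries differed in makeup. Vehicle tumour 1 had the lowest summed ductal marker level of the 12 tumours (9.57 on the log2 scale, against 12.1 to 13.9 in the others). Treated tumour 3 had the highest hepatocyte level (14.7), and vehicle tumour 5 the highest sum of the 4 measured neutrophil precursor markers (12.5, against 4.39 to 9.32 in the others). Almost all of that sum was Ltf, a granule protein gene that other cells also express, since Ngp, Prtn3 and Gfi1 were at 5.25 or below in every tumour. The labels name 2 library kits for sorted cells without saying which library had which. Whether reads were counted by strand is not given in the sources used here, and 7 members (Ccna2, Cdc20, Cdca8, Kif20a, Ncapg, Nusap1 and Prc1) share 53 to 21810 annotated bases with a protein-coding gene on the other strand that is measured too, so reads of the pair may be split either way.

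In tumours, the comparison asked whether mitosis genes differed after 14 days of GS9820. All 44 were lower on average in treated tumours, with a median difference of -1.16, a 2.23-fold lower level, against -0.06 over all 16296 genes tested, of which 54.7% were below 0. A single member, Kif23, passed the test across all genes (limma, Benjamini-Hochberg adjusted p at most 0.05), where 1.33% of all genes were called lower. A count of 1 in 44 is near that share. At an unadjusted p under 0.05 the members numbered 30 lower and 0 higher, against 15.3% and 9.14% of all genes. With 1 tumour left out, that number was 15 without treated tumour 2, 16 without treated tumour 4, 18 without vehicle tumour 3, 20 without vehicle tumour 1 and 41 without vehicle tumour 5 or treated tumour 3. The share of all genes at that p was not computed for these fits, so these counts have no background beside them. The remaining 43 did not pass, and 2 tumours lay among those of the other group. Vehicle tumour 5 was the lowest of the 7 vehicle tumours in 43 of 44 members, and treated tumour 3 was the highest of the 5 treated tumours in 42 of 44. Without vehicle tumour 5, 32 members passed as lower (of 1192 genes lower among 16280), and without treated tumour 3, 10 did (of 293 among 16272). Without vehicle tumour 2, 3, 4 or 7, or treated tumour 2, 4 or 5, 0 members passed, and the 44 differences remained below 0 in each of these fits.

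**Figure D2:**
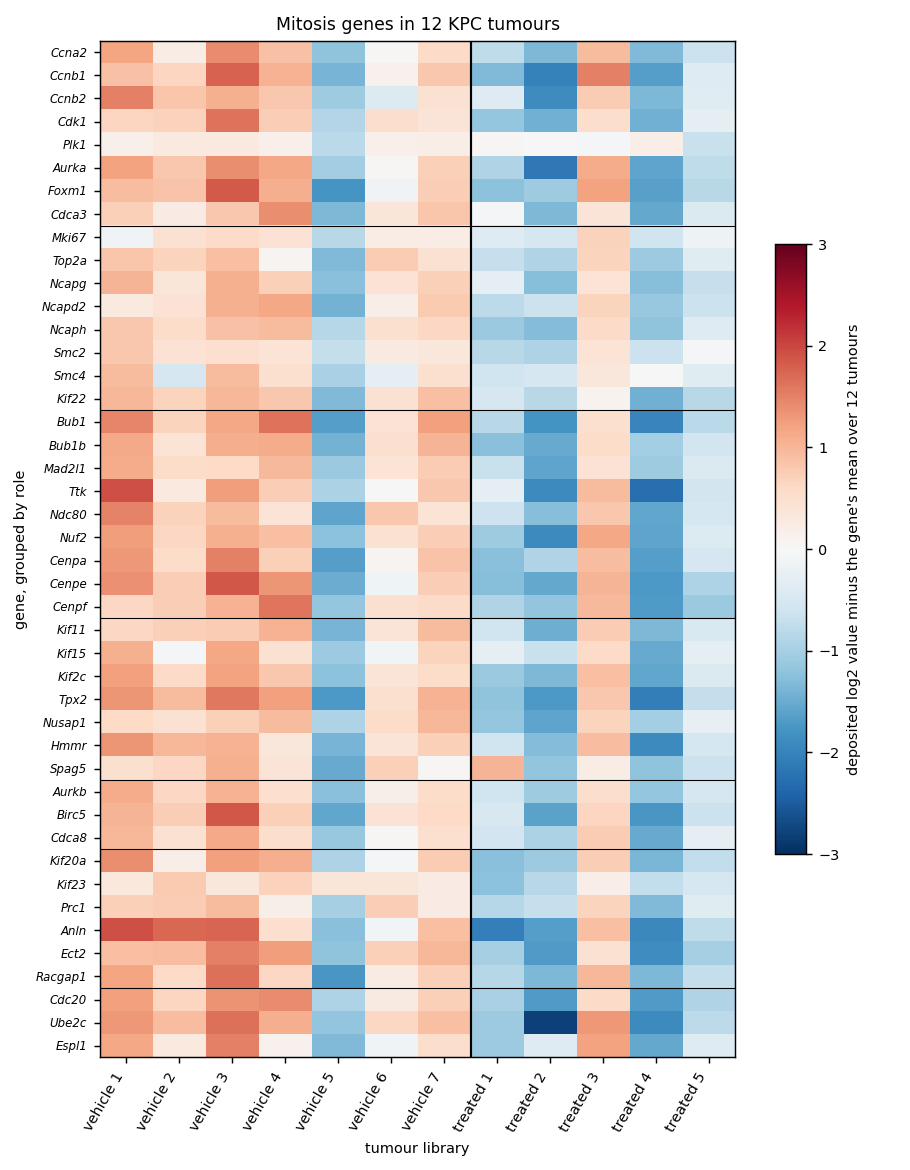
Each cell is a gene's deposited log2 value in a tumour minus its mean over the 12 tumours, for 44 mitosis genes (rows, with lines between roles) in 7 vehicle (left) and 5 treated (right) tumours. Vehicle tumour 5 is blue in nearly every row and treated tumour 3 red in nearly every row, while Kif23 is not low in vehicle tumour 5.

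Taken per library, the median over the 44 members was 5.49, 5.14, 5.52, 5.40, 3.13, 4.81 and 5.27 in vehicle tumours 1 to 7 and 3.74, 3.22, 5.23, 3.08 and 3.89 in treated tumours 1 to 5, with a median over all genes of 4.80 in each. Apart from vehicle tumour 5 and treated tumour 3 the groups did not overlap in this value. Treated tumours 1, 2, 4 and 5 lay below all 6 other vehicle tumours in 42, 43, 42 and 42 of the 44 members, and treated tumour 3 in 4. The 2 tumours were set aside after these values were seen, and the share of all genes was not computed for these counts. With all 12 tumours kept, 1 of the 44 members did not overlap between groups, against 1.86% of all genes. Treated tumour 3 lay above the vehicle mean in 33 members, and vehicle tumour 5 lay below the treated mean in 42. In a whole tumour, fewer dividing cells and less of these RNAs per cell cannot be told apart.

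The kinases, cyclins and factors that open mitosis had a median difference of -1.16 over 8 genes, and 0 passed. Ccna2, which encodes cyclin A of S phase and mitotic entry, ran from 5.10 to 7.74 in vehicle tumours (median 6.89) and was 5.54, 4.97, 7.25, 4.98 and 5.67 in treated tumours 1 to 5. Cdk1, the kinase that cyclins A and B switch on, was 3.69, 3.41, 5.38, 3.41 and 4.57 in treated tumours 1 to 5, and in vehicle tumours it had a median of 5.50 (lowest 3.98, highest 6.49). Treated tumours 1, 2 and 4 lay below every vehicle tumour in Cdk1, and treated tumours 3 and 5 did not. Foxm1, the transcription factor of late cell cycle genes, ran from 2.97 to 6.59 in vehicle tumours (median 5.60) and was 3.51, 3.69, 5.94, 3.12 and 3.91 in treated tumours 1 to 5. The groups overlapped in Foxm1, with vehicle tumour 5 lowest of all 12 and treated tumour 3 above the vehicle median. Foxm1 differed by -1.22 ± 0.60 (adjusted p = 0.229). Cdk1 differed by -1.30 ± 0.42 (adjusted p = 0.0976). Cdk1 and Foxm1 were thus lower on average without passing. Plk1, polo-like kinase, which drives entry, spindle building and exit, was 4.45, 4.41, 4.38, 4.61 and 3.73 in treated tumours 1 to 5, and in vehicle tumours it had a median of 4.56 (lowest 3.60, highest 4.70). Plk1 stood apart from the other members with the smallest difference, -0.15 ± 0.22 (adjusted p = 0.702), and its range over the 12 tumours, 1.09, was the narrowest of the 44, whose median range was 2.86.

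Genes of chromosome structure and condensin, which folds chromosomes for division, had the smallest median difference of the roles, -0.84 over 8 genes. Mki67, the coat protein of mitotic chromosomes that Ki-67 staining detects, ran from 6.42 to 7.83 in vehicle tumours (median 7.49) and was 6.87, 6.75, 7.94, 6.65 and 7.10 in treated tumours 1 to 5. Mki67 overlapped widely between groups and differed by -0.33 ± 0.27 (adjusted p = 0.479). Top2a, topoisomerase II, which untangles sister DNA, was 6.07, 5.84, 7.41, 5.67 and 6.38 in treated tumours 1 to 5, and in vehicle tumours it had a median of 7.42 (lowest 5.42, highest 7.66). Top2a differed by -0.82 ± 0.40 (adjusted p = 0.225), so the gene behind the Ki-67 stain had a smaller estimate than most of its group, although the difference between genes was not tested. Ncaph, the kleisin that closes the condensin I ring, ran from 3.09 to 4.89 in vehicle tumours (median 4.57) and was 2.82, 2.64, 4.51, 2.74 and 3.55 in treated tumours 1 to 5. Kif22, a kinesin that pushes chromosome arms, was 3.82, 3.50, 4.42, 2.88 and 3.48 in treated tumours 1 to 5, and in vehicle tumours it had a median of 5.13 (lowest 3.01, highest 5.31). Ncaph and Kif22 differed by -1.18 ± 0.38 and -1.20 ± 0.39 (adjusted p = 0.0938 and 0.0985).

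Kinetochore and checkpoint genes, which attach chromosomes to the spindle and delay anaphase until all are attached, had a median difference of -1.31 over 9 genes, from -1.69 ± 0.57 for Bub1 to -1.09 ± 0.51 for Ndc80. Cenpf, a large protein of the outer kinetochore, ran from 3.97 to 6.73 in vehicle tumours (median 5.76) and was 4.22, 3.94, 6.10, 3.43 and 4.0 in treated tumours 1 to 5. Cenpa, the histone H3 variant that marks centromeres, was 3.59, 3.92, 5.77, 3.19 and 4.32 in treated tumours 1 to 5, and in vehicle tumours it had a median of 5.55 (lowest 3.19, highest 6.34). Vehicle tumour 5 lay within the treated range in Cenpf and at its lower edge in Cenpa, and treated tumour 3 lay within the vehicle range in both. Spindle motors and microtubule factors had a median of -1.15 over 7 genes. Kif11, the kinesin that pushes spindle poles apart, ran from 3.05 to 5.49 in vehicle tumours (median 5.16) and was 3.84, 2.98, 5.21, 3.10 and 3.98 in treated tumours 1 to 5. Tpx2, which activates Aurora A on spindle microtubules, was 3.22, 2.69, 5.23, 2.34 and 3.71 in treated tumours 1 to 5, and in vehicle tumours it had a median of 5.46 (lowest 2.70, highest 6.0). Tpx2 differed by -1.68 ± 0.59 (adjusted p = 0.116).

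The chromosomal passenger complex, which corrects faulty attachments and then moves to the midzone, had a median of -0.96 over its 3 listed genes. Birc5, survivin, ran from 3.18 to 6.62 in vehicle tumours (median 5.46) and was 4.27, 3.13, 5.38, 3.01 and 4.10 in treated tumours 1 to 5. Aurkb, the Aurora B kinase of the complex, was 3.78, 3.32, 4.91, 3.22 and 3.87 in treated tumours 1 to 5, and in vehicle tumours it had a median of 4.94 (lowest 3.13, highest 5.49). Aurkb differed by -0.96 ± 0.40 (adjusted p = 0.168), with treated tumour 3 inside the vehicle range.

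Central spindle and cytokinesis genes had a median of -1.20 over 6 genes. Kif23, the kinesin subunit of centralspindlin, ran from 5.30 to 5.84 in vehicle tumours (median 5.42) and was 3.82, 4.21, 5.26, 4.31 and 4.55 in treated tumours 1 to 5. Every treated tumour lay below every vehicle tumour, the only such member of the 44, against 1.86% of all genes. A count of 1 in 44 is near that share, and treated tumour 3 (5.26) was close to the lowest vehicle tumour (5.30). Kif23 (ENSMUSG00000032254; GRCm38 chromosome 9, 61915905 to 61946774, minus strand) averaged 4.43 ± 0.53 (SD, n = 5) in treated and 5.50 ± 0.21 (SD, n = 7) in vehicle tumours. In the limma fit it fell by 1.07 ± 0.22, a 2.10-fold lower level (adjusted p = 0.0346). Vehicle tumour 5, the lowest vehicle tumour in every other member, held Kif23 at 5.43, near the middle of its group. The adjusted p of Kif23 was 0.055 to 0.106 without any 1 of vehicle tumours 2, 3, 4 and 7 or treated tumours 2, 4 and 5, and the difference stayed between -0.92 and -1.28 over the 12 fits that left out 1 tumour. Racgap1, which encodes the partner protein of Kif23 in centralspindlin, was 3.93, 3.45, 5.80, 3.46 and 4.08 in treated tumours 1 to 5, and in vehicle tumours it had a median of 5.42 (lowest 3.05, highest 6.44). Unlike Kif23, Racgap1 was low in vehicle tumour 5, and it differed by -1.11 ± 0.54 (adjusted p = 0.228). Ect2, the exchange factor that switches on RhoA at the cleavage furrow, ran from 3.14 to 5.86 in vehicle tumours (median 5.28) and was 3.36, 2.65, 4.81, 2.47 and 3.35 in treated tumours 1 to 5. Treated tumour 3 lay inside the vehicle range and the other treated tumours near or below its lower end. Ect2 had the second smallest p, with a difference of -1.74 ± 0.48 (adjusted p = 0.066). Kif20a, a midzone kinesin that carries the passenger complex, was 4.90, 5.06, 6.89, 4.79 and 5.41 in treated tumours 1 to 5, and in vehicle tumours it had a median of 6.91 (lowest 5.24, highest 7.55). Prc1, which bundles midzone microtubules, ran from 4.26 to 6.20 in vehicle tumours (median 5.98) and was 4.40, 4.56, 5.92, 3.93 and 4.90 in treated tumours 1 to 5. In both, treated tumour 3 lay inside the vehicle range and vehicle tumour 5 inside the treated range. Anln, the furrow scaffold anillin, had the largest estimate of the 44, -1.88 ± 0.62, and a wide error (adjusted p = 0.101).

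Genes of anaphase and exit had the largest median of the roles, -1.61 over 3 genes. Cdc20, the activator that turns the anaphase-promoting complex (APC/C) on securin and cyclin B, was 4.24, 3.52, 5.78, 3.52 and 4.31 in treated tumours 1 to 5, and in vehicle tumours it had a median of 5.92 (lowest 4.29, highest 6.63). Ube2c, the ubiquitin-conjugating enzyme of the APC/C, ran from 3.01 to 5.85 in vehicle tumours (median 5.11) and was 3.11, 1.39, 5.50, 2.29 and 3.40 in treated tumours 1 to 5. Ube2c spanned 4.46 over the 12 tumours, the widest range of the 44. Cdc20 and Ube2c differed by -1.61 ± 0.46 and -1.81 ± 0.63 (adjusted p = 0.0727 and 0.114).

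**Figure D3:**
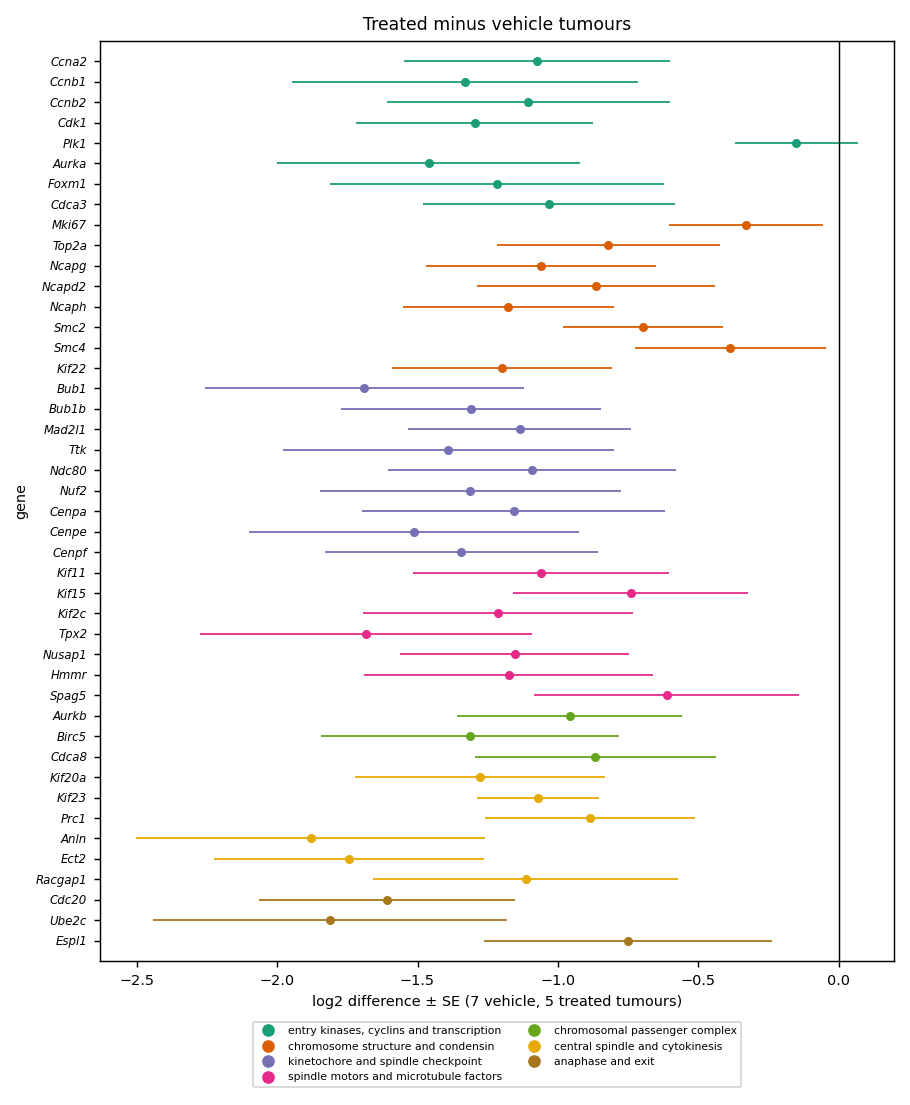
Log2 difference, treated minus vehicle tumours, with its SE for each of the 44 mitosis genes, coloured by role (7 vehicle and 5 treated tumours). All points lie left of 0, Plk1 nearest to it at -0.15, and Kif23 has a short error bar.

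Other cell cycle genes, from lists beside the 45, gave the same direction with few calls, where 1.33% of all genes were called lower. Of 48 further mitosis genes 0 passed, and their median was -1.22. Of 37 S phase and replication genes 3 fell and the median was -0.74: the helicase subunit gene Mcm6 fell by 1.45 ± 0.33, the chromatin assembly gene Chaf1b by 1.26 ± 0.29 and Gins4, of the replicative helicase, by 0.93 ± 0.22 (limma, adjusted p = 0.043, 0.045 and 0.0468). These calls were near the threshold: without treated tumour 4, 0 of all genes passed, and without treated tumour 2, 7 of all genes passed as lower. None of the genes passed among 11 G1 cyclins and kinases (median -0.22), 8 CDK inhibitors (-0.67), 19 Rb, E2F and DREAM genes (-0.32) or 15 listed APC/C genes (-0.25). None of the genes with the smallest p on the 5 lists without a call came below an adjusted p of 0.0549. Ncapg2 and Pttg1, further mitosis genes, differed by -1.14 ± 0.31 and -1.76 ± 0.48, and the G1 genes Cdk6 and Ccnd1 by -0.89 ± 0.22 and -1.53 ± 0.38. Cdkn2a and Cdkn3, CDK inhibitor genes, differed by -2.54 ± 0.75 and -1.42 ± 0.49, and the Rb, E2F and DREAM genes E2f1 and E2f3 by -1.60 ± 0.48 and -0.76 ± 0.31. Ube2s and Anapc11, APC/C genes, differed by -0.92 ± 0.26 and -0.49 ± 0.18.

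Marker lists of other cells were read beside these genes. In the same tumour fit, 143 of all 16296 genes were called higher and 216 lower. Of 10 islet markers 3 rose, with a median of 4.70, and their summed level was 3.22 to 10.8 in vehicle tumours and 9.40 to 12.6 in treated tumours. The 14 acinar markers had a median of 2.48 with 0 passing, and summed levels of 7.43 to 15.7 and 11.8 to 15.6. Of 14 ductal and carcinoma markers 0 passed, with a median of 0.50 and sums of 9.57 to 13.9 and 12.1 to 13.5. Of 10 fibroblast markers 2 rose (median 0.30) and of 8 endothelial markers 2 rose (median 0.64). With 0 passing, the 6 measured hepatocyte and 6 adipocyte markers had medians of 2.71 and 3.41, and 9 mature neutrophil markers had a median of -1.24, all 9 below 0, with sums of 7.03 to 10.3 in vehicle and 5.50 to 10.1 in treated tumours. Of the B cell, T cell, plasma cell, monocyte, macrophage, dendritic cell, erythroid and progenitor markers 0 passed. Treated tumour 3, where mitosis genes were high, had the lowest acinar and islet sums of the treated tumours, and vehicle tumour 5, where they were low, had the highest ductal sum (13.9), an acinar sum of 13.7 and an islet sum of 6.29. Whether these cells had a part in the mitosis gene differences was not tested.

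In the spleen, monocytes were set against PMN, within vehicle and within treated mice, to ask which sorted cells carried mitosis RNA. In vehicle mice 43 of the 44 genes rose in monocytes (limma, adjusted p at most 0.05), where 32.8% of all 13968 genes were called higher, and the median difference was 2.73, 6.65-fold, against 0.07 over all genes. In treated mice 43 again passed as higher, where 37.6% of all genes were, with a median of 2.20, 4.60-fold, against 0.07. The exception was Kif23 in both. In 43 members the lowest of the 7 monocyte libraries lay above the highest of the 7 PMN libraries, a count without a share of all genes beside it. Within vehicle and within treated mice, 43 did not overlap, against 32.4% and 37.4% of all genes.

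By library, the median over the members was 4.37, 3.97 and 4.54 in vehicle PMN and 4.81, 4.93, 4.43 and 4.14 in treated PMN. It was 7.26, 7.73 and 5.99 in vehicle monocytes and 7.13, 6.49, 7.07 and 6.43 in treated monocytes, with 4.56 as the median of all genes in each library. On this scale, which the authors name per length, 12 to 27 members lay above that median in PMN libraries and 42 to 44 in monocyte libraries. The members were thus measurable in PMN too, at middle ranks of all genes.

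**Figure D4:**
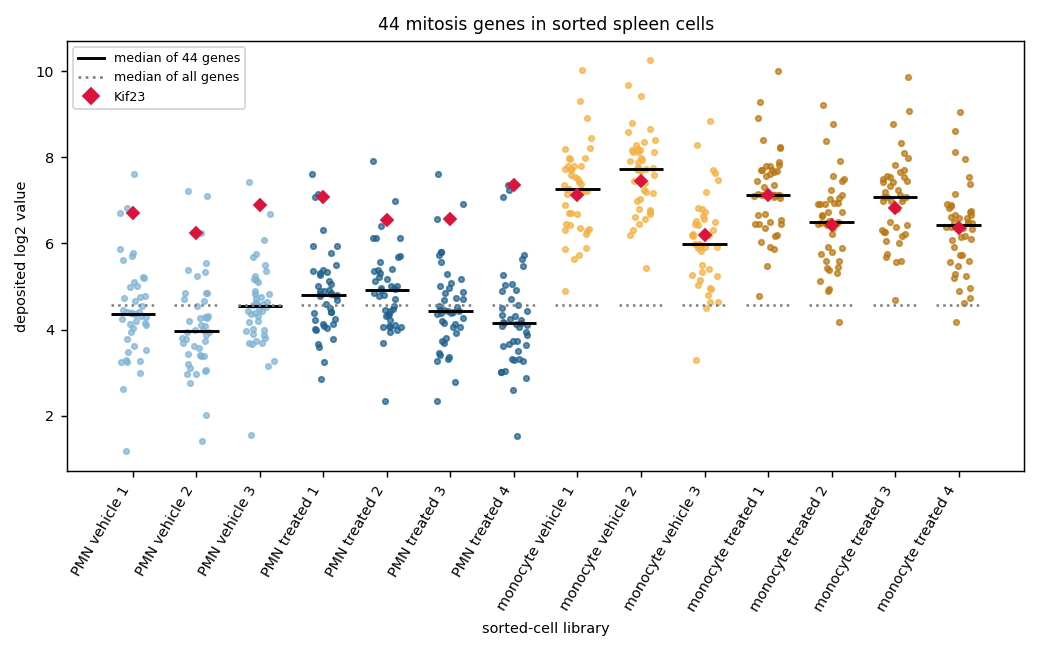
Deposited log2 values of the 44 mitosis genes (points) in each of the 14 sorted-cell libraries, with their median (black line), the median of all genes (dotted line) and Kif23 (red diamonds). Monocyte medians lie between 5.99 and 7.73 and PMN medians between 3.97 and 4.93, while Kif23 stays between 6.20 and 7.45 in both.

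Among entry genes all 8 rose in both comparisons. Ccna2 was 5.78, 5.53 and 5.75 in vehicle PMN and 5.95, 6.12, 5.80 and 5.49 in treated PMN, and 8.92, 9.41 and 7.70 in vehicle and 8.92, 8.37, 8.77 and 8.13 in treated monocytes. Ccna2 rose by 2.99 ± 0.35 in vehicle and by 2.71 ± 0.30 in treated mice (adjusted p = 1.61e-05 and 5.93e-06). Cyclin A RNA thus did not overlap between cell types. Ccnb2, cyclin B2, was 5.61, 5.24 and 5.49 in vehicle PMN and 5.79, 6.13, 5.56 and 5.27 in treated PMN, and 7.79, 8.16 and 6.42 in vehicle and 7.61, 6.92, 7.54 and 6.66 in treated monocytes. Ccnb2 rose by 2.01 ± 0.39 in vehicle and by 1.50 ± 0.34 in treated mice (adjusted p = 0.000741 and 0.00159). Vehicle monocyte library 3 was the monocyte library nearest to PMN. Foxm1 was 4.54, 3.39 and 4.56 in vehicle PMN and 5.13, 5.22, 4.69 and 4.16 in treated PMN, and 7.55, 7.67 and 6.21 in vehicle and 7.57, 6.73, 7.33 and 6.60 in treated monocytes. Foxm1 rose by 2.97 ± 0.44 in vehicle and by 2.26 ± 0.38 in treated mice (adjusted p = 0.000101 and 0.00018). In Foxm1, too, every monocyte library lay above every PMN library. Cdk1 rose by 2.97 ± 0.40 in vehicle mice and Cdca3, a trigger of mitotic entry, by 2.95 ± 0.41, with 2.49 ± 0.35 for Cdca3 in treated mice. Plk1 was 4.42, 3.78 and 4.61 in vehicle PMN and 4.60, 4.97, 4.45 and 4.16 in treated PMN, and 7.37, 7.88 and 5.91 in vehicle and 7.36, 6.48, 6.99 and 6.17 in treated monocytes. Plk1, with the smallest tumour difference, rose by 2.79 ± 0.44 and 2.20 ± 0.38 here.

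Of the chromosome and condensin genes all 8 rose. Top2a was 5.88, 5.34 and 6.08 in vehicle PMN and 6.31, 6.40, 5.81 and 5.72 in treated PMN, and 9.31, 9.67 and 8.28 in vehicle and 9.28, 8.77, 9.08 and 8.62 in treated monocytes. Top2a rose by 3.32 ± 0.33 in vehicle and by 2.88 ± 0.28 in treated mice (adjusted p = 4.77e-06 and 2.26e-06). In fold terms Top2a was 10.01-fold higher in vehicle and 7.34-fold higher in treated monocytes, the largest estimate of the 44 in both. Mki67 was 7.61, 7.22 and 7.41 in vehicle PMN and 7.60, 7.92, 7.61 and 7.23 in treated PMN, and 10.02, 10.25 and 8.83 in vehicle and 9.99, 9.21, 9.86 and 9.04 in treated monocytes. Mki67 rose by 2.29 ± 0.34 in vehicle and by 1.93 ± 0.30 in treated mice (adjusted p = 0.000111 and 8.55e-05). Mki67 was at 7.22 or above in every PMN library, so the cell types differed in level and not in detection. Smc4, an ATPase subunit of condensin, was 6.82, 7.09 and 6.67 in vehicle PMN and 7.14, 6.98, 6.92 and 7.07 in treated PMN, and 8.45, 8.79 and 7.47 in vehicle and 8.40, 7.90, 8.34 and 7.96 in treated monocytes. Smc4 had the smallest difference that passed, 1.38 ± 0.26 in vehicle and 1.12 ± 0.23 in treated mice (adjusted p = 0.000702 and 0.000783). Its condensin partners had larger estimates: Ncaph rose by 2.98 ± 0.43, Ncapd2 by 2.91 ± 0.33 and Smc2 by 2.81 ± 0.38 in vehicle mice, and by 2.60 ± 0.37, 2.58 ± 0.29 and 2.54 ± 0.33 in treated mice.

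All 9 kinetochore and checkpoint genes rose. Cenpa was 5.71, 5.38 and 5.68 in vehicle PMN and 5.93, 6.13, 5.72 and 5.63 in treated PMN, and 7.58, 7.93 and 6.50 in vehicle and 7.70, 6.90, 7.45 and 6.49 in treated monocytes. Cenpa rose by 1.75 ± 0.35 in vehicle and by 1.28 ± 0.30 in treated mice (adjusted p = 0.000898 and 0.00211). Among members that passed, the centromere histone gene had a small gap between cell types. Mad2l1, the checkpoint protein that holds Cdc20, was 4.74, 4.28 and 4.75 in vehicle PMN and 4.77, 4.84, 4.71 and 4.57 in treated PMN, and 7.24, 7.71 and 6.21 in vehicle and 7.11, 6.64, 7.06 and 6.47 in treated monocytes. Mad2l1 rose by 2.47 ± 0.30 in vehicle and by 2.09 ± 0.26 in treated mice (adjusted p = 2.46e-05 and 1.64e-05). The monocyte and PMN libraries of this checkpoint gene did not overlap. Ttk, the checkpoint kinase also called Mps1, was 1.17, 1.41 and 1.55 in vehicle PMN and 2.85, 2.33, 2.34 and 1.53 in treated PMN, and 4.91, 5.43 and 3.30 in vehicle and 4.79, 4.19, 4.68 and 4.19 in treated monocytes. Ttk had the lowest value of the 44 in each of the 14 libraries and rose by 3.17 ± 0.46 in vehicle mice. All 7 spindle genes rose. Kif11 was 4.42, 3.95 and 4.65 in vehicle PMN and 4.90, 4.80, 4.46 and 4.07 in treated PMN, and 7.74, 8.12 and 6.65 in vehicle and 7.65, 6.92, 7.53 and 6.88 in treated monocytes. Kif11 rose by 3.16 ± 0.36 in vehicle and by 2.69 ± 0.31 in treated mice (adjusted p = 1.29e-05 and 8.18e-06). Tpx2 was 4.46, 4.27 and 4.64 in vehicle PMN and 4.77, 5.01, 4.53 and 4.08 in treated PMN, and 7.23, 7.72 and 5.93 in vehicle and 7.13, 6.50, 7.0 and 6.38 in treated monocytes. The mitotic kinesin gene Kif15 rose by 2.95 ± 0.43 and 2.51 ± 0.37, and Nusap1, a microtubule binder, by 2.97 ± 0.40 and 2.45 ± 0.34.

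The 3 passenger complex genes rose. Aurkb was 4.19, 4.12 and 4.44 in vehicle PMN and 4.90, 4.72, 4.42 and 4.24 in treated PMN, and 7.80, 8.11 and 6.74 in vehicle and 7.70, 7.13, 7.50 and 6.87 in treated monocytes. Aurkb rose by 3.31 ± 0.31 in vehicle and by 2.73 ± 0.27 in treated mice (adjusted p = 3.54e-06 and 2.39e-06). Birc5 was 4.76, 4.32 and 4.82 in vehicle PMN and 5.02, 5.31, 4.73 and 4.23 in treated PMN, and 7.79, 8.17 and 6.44 in vehicle and 7.69, 6.93, 7.43 and 6.82 in treated monocytes. Birc5 rose by 2.84 ± 0.40 and 2.39 ± 0.35. The 3 genes of anaphase and exit also rose. Cdc20 was 5.23, 4.71 and 5.25 in vehicle PMN and 5.32, 5.38, 5.16 and 4.92 in treated PMN, and 7.98, 8.39 and 6.51 in vehicle and 7.80, 7.02, 7.56 and 6.74 in treated monocytes. Ube2c was 4.67, 4.08 and 4.83 in vehicle PMN and 5.26, 5.41, 4.85 and 4.43 in treated PMN, and 7.72, 8.12 and 6.17 in vehicle and 7.72, 6.93, 7.42 and 6.75 in treated monocytes. Both kept monocyte libraries above all PMN libraries. Of this group, Espl1, the protease separase, which cuts cohesin, rose by 2.45 ± 0.21 in treated mice.

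Central spindle genes split. Racgap1 was 5.02, 4.84 and 5.18 in vehicle PMN and 5.34, 5.35, 4.97 and 5.07 in treated PMN, and 7.98, 8.19 and 7.63 in vehicle and 7.83, 7.57, 7.83 and 7.53 in treated monocytes. Racgap1 rose by 2.92 ± 0.16 and 2.51 ± 0.14, with the smallest p of the members in both (adjusted p = 1.09e-07 and 3.69e-08). Kif23 was 6.70, 6.24 and 6.89 in vehicle PMN and 7.08, 6.55, 6.57 and 7.35 in treated PMN, and 7.12, 7.45 and 6.20 in vehicle and 7.11, 6.44, 6.82 and 6.37 in treated monocytes. Its centralspindlin partner Kif23 overlapped between cell types, with differences of 0.32 ± 0.32 and -0.20 ± 0.28 (adjusted p = 0.413 and 0.526). In PMN, Kif23 was higher in the treated library 4 (7.35), the treated PMN library in which 40 other members were lowest. No other annotated gene overlaps Kif23 in GENCODE M21. Ect2, Anln, Prc1 and Kif20a rose by 2.15 ± 0.41, 2.39 ± 0.39, 2.80 ± 0.35 and 2.65 ± 0.35 in vehicle mice.

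**Figure D5:**
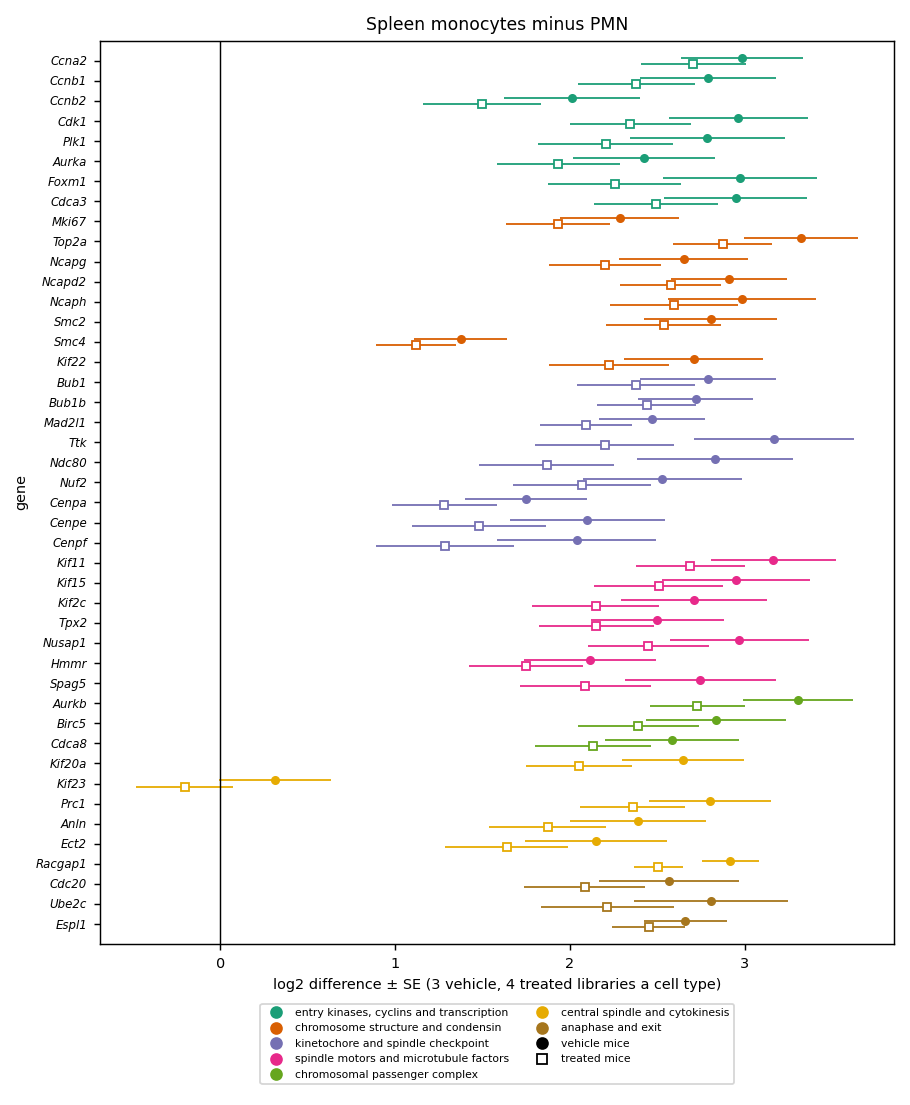
Log2 difference, monocytes minus PMN, with its SE for the 44 mitosis genes in vehicle mice (filled circles, 3 libraries a cell type) and treated mice (open squares, 4 libraries a cell type), coloured by role. Kif23 lies at 0.32 and -0.20, and every other gene above 1.1.

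Further cell cycle genes differed likewise between the cell types. For scale, of all 13968 genes 4586 were called higher and 3804 lower in vehicle mice, and 5248 and 4477 in treated mice. In vehicle mice 46 of 48 other mitosis genes and 36 of 37 S phase genes rose, with medians of 2.47 and 2.48. Stmn1, Iqgap3 and Spc24 rose by 3.39 ± 0.33, 3.36 ± 0.41 and 3.14 ± 0.38, and the S phase genes Rrm2, Mcm5 and Uhrf1 by 3.35 ± 0.38, 3.12 ± 0.32 and 3.11 ± 0.40. In treated mice 45 and 36 rose, and 1 S phase gene fell. Lists outside S phase and mitosis were mixed and lay nearer to the shares over all genes. Of 11 G1 genes 6 rose and 2 fell in vehicle mice: Ccne1 rose by 2.39 ± 0.39 and Cdk4 by 2.18 ± 0.18, and Ccnd2, a D-type cyclin gene, fell by 2.89 ± 0.52. Of 5 measured CDK inhibitor genes Cdkn2c rose by 2.84 ± 0.32 and Cdkn3 by 1.69 ± 0.52, and Cdkn1b, the inhibitor p27 of resting cells, fell by 1.30 ± 0.17. Of 19 Rb, E2F and DREAM genes 12 rose and 1 fell, with E2f7 higher by 3.31 ± 0.58, E2f8 by 2.48 ± 0.36 and Rbl1 by 2.36 ± 0.23. Of 15 listed APC/C genes 8 rose and 0 fell, with Anapc5, Cdc23 and Ube2s higher by 1.81 ± 0.15, 1.78 ± 0.23 and 1.78 ± 0.28. In treated mice the same lists had 5, 2, 12 and 9 genes higher and 2, 2, 2 and 1 lower. The largest calls of each list in treated mice follow. Stmn1, Melk and Cdca5, further mitosis genes, differed by 2.82 ± 0.28, 2.54 ± 0.38 and 2.48 ± 0.38, and the S phase genes Rrm2, Mcm5 and Mcm6 by 3.08 ± 0.33, 2.89 ± 0.28 and 2.86 ± 0.25. Ccnd2, Cdk4 and Ccne1, G1 genes, differed by -3.38 ± 0.45, 2.37 ± 0.16 and 2.10 ± 0.34, and the CDK inhibitor genes Cdkn2c, Cdkn1b and Cdkn3 by 2.14 ± 0.28, -1.23 ± 0.15 and 1.17 ± 0.45. E2f7, Rbl1 and E2f8, Rb, E2F and DREAM genes, differed by 2.58 ± 0.50, 2.25 ± 0.20 and 1.98 ± 0.31, and the APC/C genes Anapc5, Ube2s and Anapc1 by 1.80 ± 0.13, 1.56 ± 0.24 and 1.52 ± 0.08.

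Markers checked against the labels set limits on what the monocyte libraries were. Beside the marker counts below, 4586 of all 13968 genes were called higher and 3804 lower in vehicle mice, and 5248 and 4477 in treated mice. All 10 monocyte markers were present, and 9 of 10 in vehicle and 10 of 10 in treated mice rose in monocytes over PMN, with summed log2 levels of 12.9 to 14.1 against 10.9 to 11.3. Neutrophil precursor markers were high there too: of 11, 7 rose and 0 fell in vehicle mice, and 6 rose and 1 fell in treated mice, with medians of 3.11 and 2.41. Among them was Elane, neutrophil elastase, at 8.98 or above in every monocyte library and 5.45 or below in every PMN library. Over all 11 the precursor sum was 13.6 to 15.3 in monocytes and 14.5 to 14.8 in PMN, where Ngp, a granule gene of later precursors, was at 13.4 in every library. Of 10 mature neutrophil markers 8 fell in vehicle and 9 in treated monocytes, yet S100a8 was at 12.8 or above in every monocyte library. Among vehicle monocytes, library 2 was highest in all 44 mitosis genes and had the highest precursor sum (15.3), and library 3 was lowest in all 44 and had the lowest (13.6). What part precursor cells in the monocyte gate had in the mitosis RNA was not tested.

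Treatment was then compared within each sorted cell type. In PMN 0 of the 44 genes passed, as did 0 of all 13968 genes (limma, 0%), and 0 members had an unadjusted p under 0.05, where 3.08% of all genes did. All 44 estimates were above 0 with a median of 0.26 against 0.00 over all genes, of which 50.8% were above 0. Without vehicle PMN library 2, 10 of them were below 0, without treated library 2, 3 were, and without vehicle library 1 or treated library 1, 2 were. Ndc80, a kinetochore protein that grips microtubules, was 3.0, 2.02 and 3.28 in vehicle and 3.68, 4.07, 3.42 and 3.01 in treated PMN. Ttk was 1.17, 1.41 and 1.55 in vehicle and 2.85, 2.33, 2.34 and 1.53 in treated PMN. The smallest p belonged to Ttk, with 0.88 ± 0.43, and Ndc80, with 0.78 ± 0.42, and in both the groups overlapped. Foxm1, Ube2c, Cenpf and Racgap1 followed at 0.63 ± 0.41, 0.46 ± 0.41, 0.48 ± 0.43 and 0.17 ± 0.15, and Mki67 and Top2a stood at 0.18 ± 0.32 and 0.30 ± 0.31 (all adjusted p = 1). The median rested in part on vehicle PMN library 2, the lowest in 39 of 44 members, and was 0.09 without it, 0.13 without treated library 2 and at most 0.38 without any other. With 1 library left out, Foxm1 ran from 0.25 to 0.84, Ndc80 from 0.40 to 1.03 and Top2a from 0.08 to 0.45. Markers of other cells differed beside them without passing: the 10 measured erythroid precursor markers were all below 0, with a median of -2.37 and 9 at an unadjusted p under 0.05. Their summed log2 level was 11.8 to 13.8 in vehicle PMN, highest in library 2, and 9.53 to 11.3 in treated PMN. The 9 macrophage markers were also all below 0 (median -0.68), and what part these cells had was not tested. On the 6 lists of other cell cycle genes 0 passed, and the pair of smallest p on each is given. Cenpn and Pimreg, further mitosis genes, differed by 0.90 ± 0.35 and 0.73 ± 0.43, and the S phase genes Rpa1 and Rpa2 by -0.34 ± 0.20 and -0.34 ± 0.22. Ccnd1 and Cdk4, G1 genes, differed by -1.69 ± 0.51 and -0.25 ± 0.17, and the CDK inhibitor genes Cdkn2c and Cdkn3 by 0.37 ± 0.30 and 0.33 ± 0.49. Tfdp2 and Rbl2, Rb, E2F and DREAM genes, differed by -0.75 ± 0.25 and -0.14 ± 0.12, and the APC/C genes Cdc16 and Anapc1 by -0.15 ± 0.13 and -0.10 ± 0.09.

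In monocytes 0 of 44 passed, again with 0% of all genes, and 0 members had an unadjusted p under 0.05 against 2.40% of all genes. All 44 estimates were below 0 with a median of -0.23, where 52.8% of all genes were below 0. The vehicle libraries spanned the treated ones: vehicle library 2 lay above all 4 treated libraries in 44 members and vehicle library 3 below them in 39. No share of all genes placed so was computed. Without vehicle library 2 the median was 0.11, with 43 members above 0. Without vehicle library 3 it was -0.71, with 34 members at an unadjusted p under 0.05 and 0 of all genes past the adjusted threshold. The direction and the count thus rested on which vehicle library was kept. The share of all genes at an unadjusted p under 0.05 was not computed for that fit, so the 34 has no background beside it. Racgap1 had the smallest p at -0.24 ± 0.15. Ect2, Cdc20, Aurkb, Mad2l1 and Kif20a followed at -0.41 ± 0.38, -0.35 ± 0.38, -0.25 ± 0.29, -0.24 ± 0.28 and -0.27 ± 0.33. Mki67, Top2a and Foxm1 stood at -0.17 ± 0.32, -0.15 ± 0.31 and -0.08 ± 0.41 (adjusted p = 0.996). On the 6 lists of other cell cycle genes 0 passed, and the pair of smallest p on each is given. Haspin and Nek2, further mitosis genes, differed by -0.43 ± 0.36 and -0.48 ± 0.41, and the S phase genes Rpa2 and Gins4 by -0.42 ± 0.22 and -0.25 ± 0.17. Cdk6 and Ccnd2, G1 genes, differed by -0.55 ± 0.30 and -0.81 ± 0.48, and the CDK inhibitor genes Cdkn2d and Cdkn2c by -0.44 ± 0.28 and -0.32 ± 0.30. E2f5 and Lin9, Rb, E2F and DREAM genes, differed by 0.57 ± 0.34 and -0.29 ± 0.25, and the APC/C genes Anapc11 and Anapc13 by -0.21 ± 0.11 and -0.28 ± 0.15.

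The difference of the treatment effects, monocytes minus PMN, was tested as its own term, and 0 of 44 members passed, with 0% of all genes (limma) and 0 members at an unadjusted p under 0.05 against 1.93% of all genes. The 44 estimates were below 0 with a median of -0.46, against -0.01 over all genes, of which 51.4% were below 0. Without vehicle monocyte library 3 the median was -0.98 with 36 members at an unadjusted p under 0.05, and without vehicle monocyte library 2 it was -0.11 with 6 members above 0. In both fits 0 genes passed the adjusted threshold, and the share of all genes at an unadjusted p under 0.05 was not computed for them. Racgap1 had the smallest p at -0.41 ± 0.21, then Ndc80 at -0.96 ± 0.59 and Ttk at -0.97 ± 0.60 (adjusted p = 1). Aurkb, Kif20a and Cenpf followed at -0.58 ± 0.41, -0.59 ± 0.46 and -0.75 ± 0.60. Mki67, Top2a and Foxm1 stood at -0.35 ± 0.45, -0.45 ± 0.43 and -0.72 ± 0.58. On the 6 lists of other cell cycle genes 0 passed, and genes of smallest p on each are given. Cenpn and Pimreg, further mitosis genes, differed by -1.21 ± 0.50 and -1.17 ± 0.60, and the S phase gene Gins4 by -0.36 ± 0.24. Ccnd1 and Cdk7, G1 genes, differed by 0.98 ± 0.72 and -0.17 ± 0.16, and the CDK inhibitor genes Cdkn2c and Cdkn2d by -0.69 ± 0.42 and -0.45 ± 0.40. Tfdp2 and E2f5, Rb, E2F and DREAM genes, differed by 0.69 ± 0.35 and 0.95 ± 0.49, and the APC/C genes Anapc13 and Anapc16 by -0.33 ± 0.21 and 0.37 ± 0.24. These 3 comparisons share libraries, so their values are not independent of each other.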

How the data were processed

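RNA sequencing of 12 tumours and 14 sorted-cell libraries was used. The authors deposited log2 values per gene, which they name log2 RPKM, and no counts. TopHat2, STAR, limma and the mm10 build are named in the submitters' processing notes, with no role for each. Within a set the values have nearly 1 distribution, so the depth of each library is unknown and no counting interval could be given.

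Genes with a value of at least 0 in 5 tumours or 3 sorted libraries were kept. Tumours were fitted in 1 model and the 4 sorted groups in another with limma 3.58.1 (R 4.3.3, lmFit and eBayes with trend), and p-values were adjusted by Benjamini and Hochberg over all kept genes at 0.05. The fit was run on simulated data with 200 changed genes and independent noise for each gene. Its outcome is not given here, and shifts shared by many genes of 1 library, as in these tumours, were not simulated. Alternatives were filters, a pseudocount of 1, normalizations, other variance models, a replicate block and each library left out.

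The members and lists were chosen with earlier results of these data known. Named were members past the threshold (of more than 15, the 12 largest), otherwise the 6 of smallest p, the 2 highest of each role, Mki67, Top2a, Foxm1 and Kif4, and up to 3 genes of each cell cycle list, of which 1 is not reported here. Gene positions came from GENCODE M21 (GRCm38) and promoters from RefSeq. Groups came from the labels.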

Additional observations from a re-analysis of the deposited data

Results flagged for a closer look

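The median over the 44 members, the 2 highest genes of each role, Mki67, Top2a, Foxm1, Kif23 and Plk1 were searched. A tumour was flagged where its gap to its nearest neighbour was large for the range of its group. Chance alone meets this criterion in about 1 in 20 groups. Ncaph, Kif22, Ect2 and Racgap1, also printed by tumour, were not searched. With 18 values searched in each of 2 tumour groups, some flags are due by chance. Flags of 1 tumour in several members are not independent of each other. In vehicle tumour 5 the median over the 44 mitosis genes was 3.13, with the next vehicle tumour at 4.81. The same tumour was far below the other vehicle tumours in Top2a (5.42, nearest 6.83), Cenpf (3.97, nearest 5.61), Kif11 (3.05, nearest 4.82) and Tpx2 (2.70, nearest 4.91). It also was in Aurkb (3.13, nearest 4.55), Birc5 (3.18, nearest 5.18), Prc1 (4.26, nearest 5.44), Ube2c (3.01, nearest 4.81) and Plk1 (3.60, nearest 4.55). Among treated tumours, Foxm1 in tumour 3 was far above the others (5.94, nearest 3.91). Plk1 in treated tumour 5 was far below the others (3.73, nearest 4.38). Both treated flags passed narrowly, with gaps of 0.72 and 0.74 of the range against a criterion of 0.71. In the sorted groups of 4 libraries no such value was found among those searched, which left out Ttk and Ndc80.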

How the results depend on the processing

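Across the alternatives tried, the 44 tumour differences remained below 0, and 43 members passed in each comparison of monocytes with PMN. The count of members called lower in tumours was 1, and it was 34 with array quality weights (1683 genes lower of 16296), 0 with the replicate block and 0 to 32 with 1 tumour left out, and the cause was not tested. In the replicate block Kif23 differed by -1.13 (adjusted p = 0.113). The numbers shared between groups were not taken to pair libraries. Same-numbered tumours had correlations of -0.179 to 0.263, and treated PMN and monocyte libraries -0.134, -0.223, 0.273 and 0.450. The 3 vehicle PMN and monocyte pairs (0.457, 0.277 and 0.085) and treated pairs 3 and 4 each correlated best with their own number. Treated pairs 1 and 2 did not. This is a hint from the data and not the design. In treated against vehicle monocytes, leaving out 1 library moved Ect2 from -0.97 to 0.067, Cdc20 from -0.91 to 0.033, Aurkb from -0.66 to 0.028, Mad2l1 from -0.66 to 0.091, Kif20a from -0.73 to 0.052, Mki67 from -0.61 to 0.100, Top2a from -0.55 to 0.141 and Foxm1 from -0.55 to 0.18, lowest without vehicle library 3 and highest without vehicle library 2, and none of these passed. Foxm1 was 0.098 with the block, and 0.117, 0.023 and 0.069 without vehicle 1, treated 2 and treated 4. The median difference of treatment effects ran from -0.98 to -0.11 with 1 library left out. Median differences of monocytes minus PMN ran from 2.39 to 3.22 in vehicle and 2.04 to 2.34 in treated mice. Depth could not be assessed, and the treatment comparisons in sorted cells have 3 vehicle libraries each.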
